A study of Mus musculus with 3 samples.

Results

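The autophagy genes are a set of 35 mouse genes that encode the machinery of macroautophagy. They were found by the gene name that the arrays give to each probe. All 35 were on the array, out of 26840 genes with a symbol, and they were covered by 80 of 56605 gene probes. RNA of RAW macrophages, an established mouse macrophage line, was hybridised to SurePrint G3 Mouse GE microarrays in a single colour (Cy3). There was 1 array for each of 3 groups. In the LPS group the cells received 50 ng/mL of LPS, the agonist of the receptor TLR4, and no bacteria. In the CRL1505 + LPS group they were first kept for 24 h with *Lacticaseibacillus rhamnosus* CRL1505 at 50000000 cells/mL, washed and then given the same LPS. In the CRL1506 + LPS group the bacterium was *Lactiplantibacillus plantarum* CRL1506 at the same density and for the same time. All 3 groups thus received LPS, for 12 h by the description of the series and for 3 h by that of the samples. No array of non-stimulated cells was used here, so no value below is an effect of LPS. Since each group has 1 array, differences between groups have no replicate check and are given without a test, an error or a p-value.

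Macroautophagy wraps cytoplasm, damaged organelles or microbes in a growing double membrane, which closes to an autophagosome and fuses with lysosomes. The ULK kinase complex starts the process, the class III phosphatidylinositol 3-kinase complex marks the membrane, ATG9 vesicles and ATG2 proteins bring lipid, and the ubiquitin-like conjugation systems attach LC3 and GABARAP proteins to it. Receptors such as SQSTM1 (p62) then tether cargo to LC3. In macrophages this route also takes up intracellular bacteria and limits inflammasome signaling. Much of its control is exerted on proteins, which the arrays did not measure.

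Each probe is a stretch of 60 bases of a transcript, and several findings below turn on single probes, so their sequences are shown here 5′ to 3′ in the sense of the transcript, with positions on mm9. *Atg9a*, the gene with the largest difference for CRL1505, rests on 1 probe at chr1:75184260-75184319 on the minus strand.
Atg9a A_55_P2424459: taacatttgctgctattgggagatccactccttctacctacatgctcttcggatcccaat
*Sqstm1*, with a probe at chr11:50015985-50016044 on the minus strand, had ratios above 0 for CRL1505 at this probe and at its main one.
Sqstm1 A_55_P2069714: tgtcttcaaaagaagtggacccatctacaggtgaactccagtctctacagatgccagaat
*Atg2b* (chr12:106899315-106899374, minus strand) and *Wipi1* (chr11:109443686-109443745, minus strand) each had a probe that was past 2-fold for at least 1 strain while the main probe was not.
Atg2b A_52_P524010: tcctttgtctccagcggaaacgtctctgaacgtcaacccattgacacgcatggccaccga
Wipi1 A_55_P1968808: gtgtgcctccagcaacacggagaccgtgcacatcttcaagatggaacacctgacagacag
*Atg16l1* had a pair of overlapping probes, at chr1:89685064-89685123 and chr1:89685077-89685136 on the plus strand, that were past 2-fold for CRL1506 while its main probe was not. The first 30 bases of each are given, and capitals mark the bases that belong to the run of 43 bases that both probes hold.
Atg16l1 A_55_P2728317: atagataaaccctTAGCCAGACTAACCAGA
Atg16l1 A_55_P2720600: TAGCCAGACTAACCAGAGGGCGTAGAGACA

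All levels are log2 intensities relative to the 75th percentile of gene spots on the same array, which is 0 on this scale. Levels can be compared between arrays for a probe, but not between probes. Where a gene had several probes, the one with the highest mean over the arrays represents it (the main probe). A ratio is the difference of 2 levels, and at least 2-fold (1 on the log2 scale) was called higher or lower. All 35 main probes were well above background on all 3 arrays. Of the 80 probes, 59 were well above background on all arrays, 11 on some and 10 on none, and 1 had an outlier spot.

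The arrays for LPS and for CRL1506 + LPS shared a slide. That for CRL1505 + LPS was on a slide of its own, scanned in a separate run. Strain CRL1505 and slide therefore cannot be told apart. The share of gene spots well above background was 48.5% on the CRL1505 + LPS array, against 54.5% for LPS and 55.3% for CRL1506 + LPS. Between different probes of a gene, the log2 ratio had a median SD over all genes of 0.228 for CRL1505 over LPS, 0.215 for CRL1506 over LPS and 0.322 between the strains. Ratios of this size are within the disagreement of probes. Over the 16, 17 and 16 autophagy genes with several measured probes, this SD was 0.290, 0.114 and 0.451 in the same order. Of 10 macrophage markers, 10 were well above background with LPS and 9 on the other arrays, where *Mrc1* was not, and their summed level ranged from 9.16 to 9.49 on the log2 scale. Single markers went in opposite directions, with *Adgre1* at 2.27 for CRL1505 and just past 2-fold higher for CRL1506, and *Csf1r* at -1.47 and -0.87. Of 5 T cell markers, *Cd3d*, *Cd3e* and *Lck* were well above background on all arrays, with a summed level of 2.14 on the LPS array, 3.27 on that for CRL1505 + LPS and 2.53 on that for CRL1506 + LPS. The sum moved with *Lck*, at 1.46 for CRL1505 and 0.52 for CRL1506, while *Cd3d* and *Cd3e* were between -0.16 and 0.04 for both strains. Their part in the ratios below was not tested. No epithelial marker of 5 was well above background, 2 or 3 of 5 B cell markers were, and fibroblast markers numbered 0, 1 and 3 of 5 on the arrays in the same order.

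With CRL1505, 2 of the 35 autophagy genes were at least 2-fold lower than with LPS alone, namely *Atg9a* and *Atg16l2*, and 0 were at least 2-fold higher. With CRL1506, 0 genes passed 2-fold in either direction. The direction of the calls for CRL1505 rested on the scaling. After a shift of each array by its median, 0 genes were lower, with *Atg9a* and *Atg16l2* under 2-fold, and 3 were higher, namely *Map1lc3a* (1.27), *Sqstm1* (1.17) and *Atg10* (1.15). With cyclic loess, 2 were higher (*Map1lc3a* and *Atg10*) and 1 was lower (*Atg16l2*). The median over all genes for CRL1505 was 0.35 after the median shift, against 0.06 under the main scaling. The shares of all genes that follow are under the main scaling only. The share of all genes past 2-fold was 18.3% for CRL1505 and 9.19% for CRL1506 among genes well above background on at least 1 of the arrays compared, and 14.2% and 5.78% among those well above background on all 3 arrays, as the autophagy genes were. The autophagy genes stood at 5.71% and 0%. By direction, 7.67% of all genes on all 3 arrays were higher and 6.56% lower for CRL1505, and 4.01% were higher and 1.77% lower for CRL1506. At a threshold of 1.5-fold, 5 autophagy genes passed for CRL1505 (14.3%, against 31.8% of all genes on all 3 arrays). Of these 3 were higher, against 17.3% of all genes, and 2 were lower, against 14.5%. For CRL1506, 2 passed at 1.5-fold (5.71%, against 15.8%), with 0 higher, against 8.79%, and 2 lower, against 7.01%.

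Over the 35 genes the log2 ratio had a median of -0.03 with CRL1505 and -0.04 with CRL1506, beside 0.06 and -0.07 over all genes that were well above background on every array. Its absolute value had a median of 0.28 with CRL1505 and 0.15 with CRL1506, beside 0.37 and 0.23. Single ratios lay from -1.05 to 0.97 with CRL1505 and from -0.95 to 0.34 with CRL1506. Both comparisons use the same LPS array, so a deviation of that array enters both. When the arrays were shifted by their medians or by spike-in probes, the median over all genes for CRL1505 moved to 0.35 or -0.45, and the autophagy genes moved with it. Relative to that median, their median lay at -0.12 to -0.08 with CRL1505 and at -0.01 to 0.04 with CRL1506 under these and the other scalings and filters. A shift of whole arrays cannot change this difference, and the filters for dim probes did not touch the main probes of these genes. Quantile normalization, cyclic loess, normexp and the deposited values, which could change it, gave -0.12 to -0.09 with CRL1505 and -0.01 to 0.02 with CRL1506. The sign of 13 of the 35 ratios for CRL1505 and of 17 for CRL1506 was the same under all 7 other normalizations. The share of all genes that kept their sign is not given here.

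**Figure D1:**
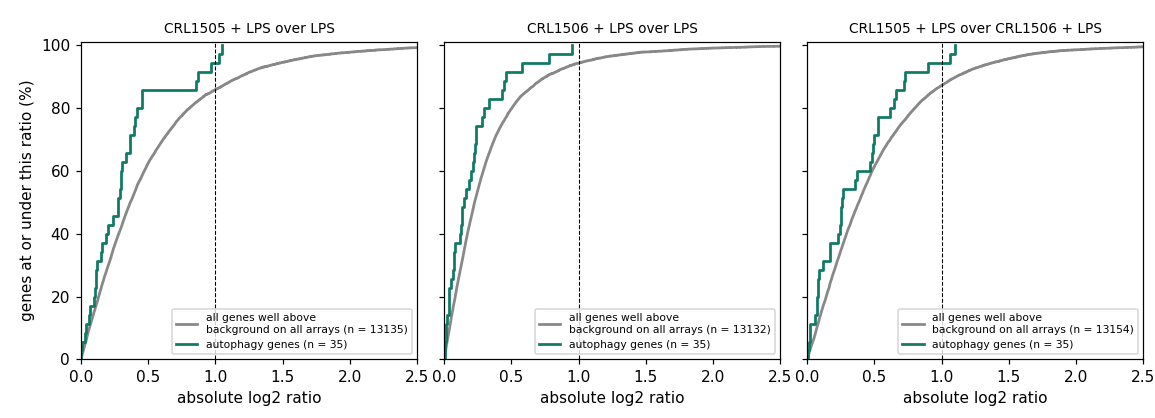
Cumulative share of genes (y axis, percent) by absolute log2 ratio (x axis), in 3 panels for CRL1505 over LPS, CRL1506 over LPS and CRL1505 over CRL1506, all with LPS. The green line shows the 35 autophagy genes, the grey line all genes that were well above background on every array, and the dashed line 2-fold. The green line lies left of the grey one over most of the range, with 2, 0 and 2 autophagy genes past 2-fold.

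**Figure D2:**
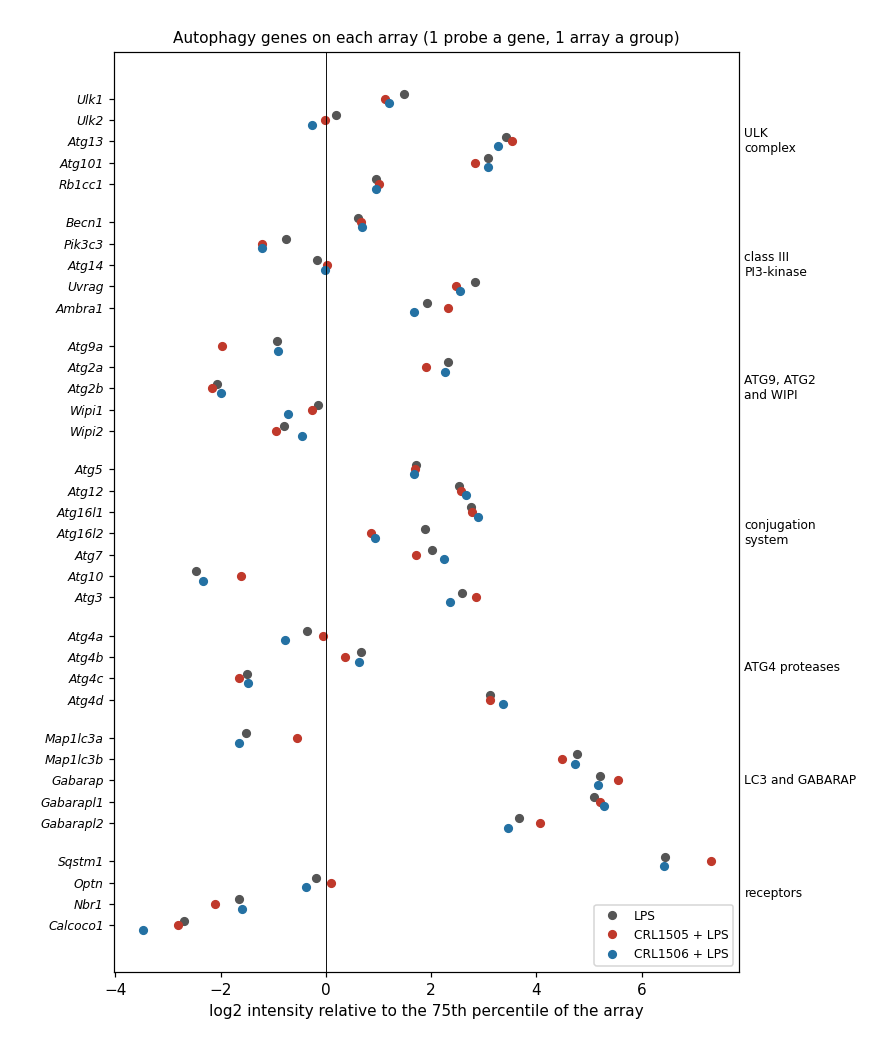
Level of each autophagy gene on each array (x axis, log2 intensity relative to the 75th percentile of the array), ordered by role, with 1 point per array and 1 probe per gene. Colours are to be compared within a line only, and most lines hold 3 points close together, with *Atg9a*, *Atg16l2*, *Atg10*, *Map1lc3a* and *Sqstm1* as the lines where CRL1505 + LPS stood farthest from LPS.

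Among genes of the ULK complex, which starts autophagy, none passed 2-fold. *Ulk2*, a kinase related to ULK1, had levels of 0.19 with LPS, -0.01 with CRL1505 + LPS and -0.25 with CRL1506 + LPS. These are ratios of -0.20 for CRL1505 and -0.45 for CRL1506, and its second probe gave the same order. *Ulk1*, the main kinase of the complex, had a ratio of -0.37 for CRL1505 and -0.29 for CRL1506, both below 0 under all 7 other normalizations. *Atg13* and *Atg101*, adaptors of the complex, had ratios between -0.24 and 0.12 for either strain. The scaffold *Rb1cc1* (FIP200) was covered by 8 probes, and 7 of them were measured on all arrays. Its main probe stood at 0.95 with LPS, 1.02 with CRL1505 + LPS and 0.96 with CRL1506 + LPS. That probe gave 0.07 for CRL1505 and 0.01 for CRL1506, while the 7 probes spread from -0.80 to 0.28 and from -0.80 to 0.48. Between the strains they spread from -1.28 to 0.54, so that the direction depended on the probe.

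In the class III phosphatidylinositol 3-kinase complex, which makes the lipid that recruits later factors, no gene passed 2-fold at its main probe. The catalytic subunit *Pik3c3* (VPS34) had levels of -0.76 with LPS, -1.21 with CRL1505 + LPS and -1.22 with CRL1506 + LPS, which is a ratio of -0.45 for CRL1505 and -0.46 for CRL1506. Both strains thus stood below LPS, with the sign kept under all 7 other normalizations. The amounts were similar under the main scaling only, since the ratio between the strains ran from -0.38 to 0.51 under the others. The scaffold *Becn1* (Beclin 1) stood at 0.61, 0.67 and 0.69, and *Atg14*, which directs the complex to the site of autophagosome formation, at -0.17, 0.01 and -0.01, in the order LPS, CRL1505 + LPS and CRL1506 + LPS. *Ambra1*, a regulator of Beclin 1, had a ratio of 0.40 for CRL1505 and -0.24 for CRL1506. *Uvrag*, the subunit of the endosomal form of the complex, had levels of 2.84, 2.47 and 2.54 at its main probe, with ratios of -0.37 and -0.30. A further probe of *Uvrag*, A_55_P2733622, was dim with LPS, that is, not well above background, and was at least 2.39-fold higher with CRL1505 and at least 3.39-fold higher with CRL1506. The probes of *Uvrag* thus went in opposite directions for both strains.

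The vesicle and lipid transfer group contained the largest ratio for CRL1505. *Atg9a*, the scramblase of the vesicles that seed the autophagosome, had a level of -0.92 with LPS, -1.97 with CRL1505 + LPS and -0.91 with CRL1506 + LPS. It was 2.07-fold lower with CRL1505 than with LPS (-1.05), close to 0 for CRL1506 (0.01), and 2.09-fold lower with CRL1505 than with CRL1506 (-1.06). The LPS and CRL1506 + LPS arrays, which share a slide, were alike, and the CRL1505 + LPS array was low. Under the 7 other normalizations the ratio for CRL1505 ranged from -1.55 to -0.74 and was past 2-fold in 3, so the call rests on the scaling while the sign does not. *Atg9a* has 1 probe, so no other probe bears on it.

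*Atg2a*, one of the lipid transfer proteins, stood at 2.32 with LPS, 1.90 with CRL1505 + LPS and 2.26 with CRL1506 + LPS, a ratio of -0.42 for CRL1505. Its relative *Atg2b* stood at -2.06, -2.16 and -1.99 at the main probe. The probe of *Atg2b* shown above was not well above background with LPS but reached -0.77 with CRL1505 + LPS and -2.85 with CRL1506 + LPS. Taking the LPS side at its bound, it was higher by at least 3.71 on the log2 scale with CRL1505 and by at least 1.63 with CRL1506. Its spots were uneven on both strains' arrays, with a mean pixel brightness above the median pixel by over 0.2 (log2), and 4 and 5 of the 20 nearest spots were uneven as well. The remaining 2 probes of *Atg2b* gave ratios from -0.09 to 0.07, so the gene as a whole was not called.

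*Wipi1* and *Wipi2* bind the lipid made by PIK3C3. *Wipi1* stood at -0.14 with LPS, -0.25 with CRL1505 + LPS and -0.72 with CRL1506 + LPS, with ratios of -0.11 and -0.58. Its probe shown above was dim with CRL1506 + LPS, at least 3.47-fold lower than with LPS, but its LPS spot was uneven, as were 6 of the 20 spots nearest to it. At both probes CRL1506 + LPS was the lowest array. *Wipi2* stood at -0.80, -0.95 and -0.46, with ratios of -0.15 for CRL1505 and 0.34 for CRL1506, the highest ratio of the set for CRL1506. A further probe of *Wipi2* had an outlier spot on the LPS array, where 8 of the 20 nearest spots were uneven, and was left out there. Between the strains it was 2.81-fold lower with CRL1505 (-1.49), whereas the main probe gave -0.49. The remaining probe of *Wipi2* gave 0.30 for CRL1505, 0.01 for CRL1506 and 0.29 between the strains, so that the probes differed in direction.

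**Figure D3:**
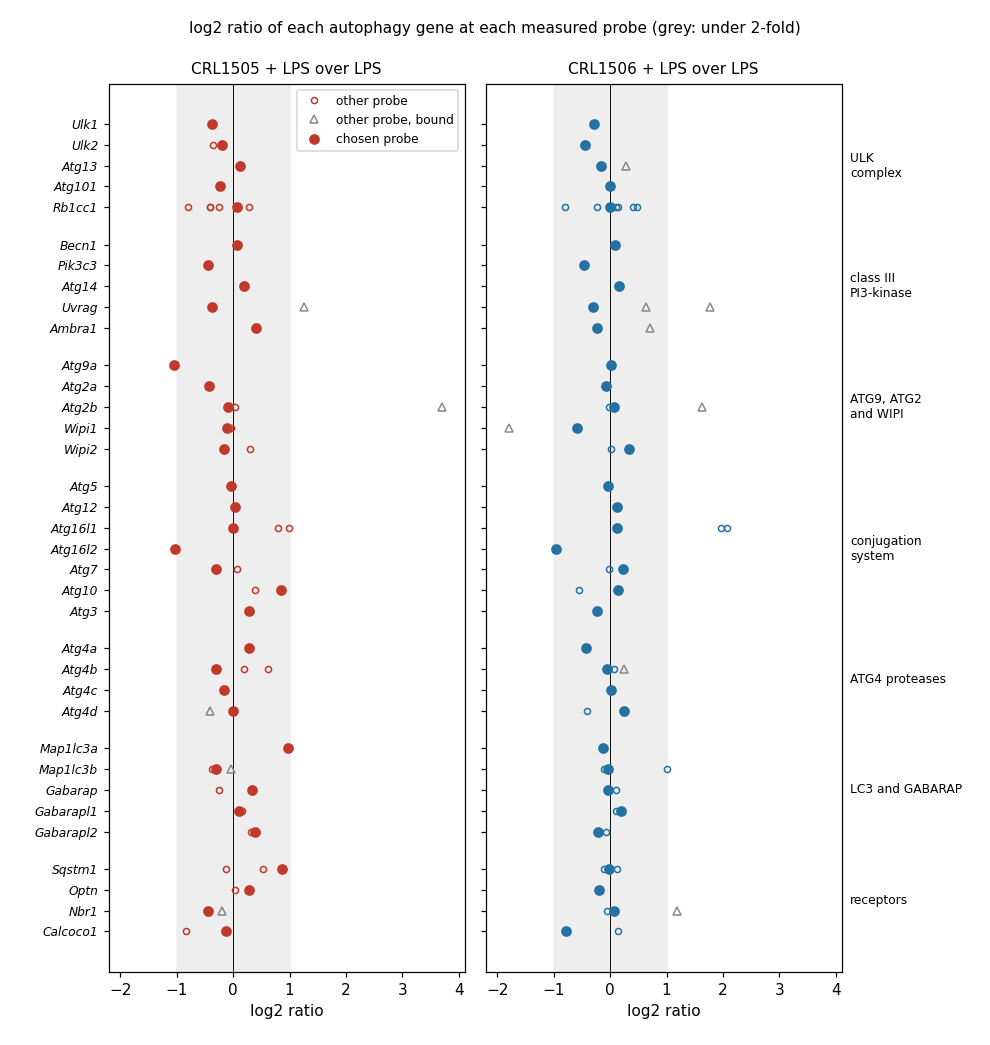
log2 ratio (x axis) of each autophagy gene for CRL1505 (left) and CRL1506 (right) over LPS alone. Filled points are the main probe of a gene, open points its other measured probes, and grey triangles probes with 1 side not well above background, where the ratio is a bound. The grey band is under 2-fold; main probes leave it only for *Atg9a* and *Atg16l2* with CRL1505, while single other probes of *Atg16l1*, *Atg2b*, *Uvrag*, *Wipi1*, *Nbr1* and *Map1lc3b* leave it for at least 1 strain.

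The conjugation systems join ATG12 to ATG5 and LC3 to lipid. *Atg16l2*, a relative of ATG16L1 that also binds the ATG12-ATG5 conjugate, had a level of 1.89 with LPS, 0.86 with CRL1505 + LPS and 0.94 with CRL1506 + LPS. It was 2.04-fold lower with CRL1505 (-1.03) and 1.94-fold lower with CRL1506 (-0.95), and differed by -0.07 between the strains. Here the LPS array was the high one, and both strains' arrays, which lay on different slides, were alike under the main scaling. The ratio between the strains ran from -0.46 to 0.42 under the 7 other normalizations. For CRL1505 the ratio ranged from -1.53 to -0.73 under the 7 other normalizations and was past 2-fold in 6. For CRL1506 it ranged from -1.15 to -0.86 and was past 2-fold in 2. The second probe of the gene was dim on all arrays. Since both ratios use the LPS array, they are not independent of each other.

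*Atg10*, the enzyme that transfers ATG12 to ATG5, stood at -2.47 with LPS, -1.61 with CRL1505 + LPS and -2.33 with CRL1506 + LPS, a ratio of 0.86 for CRL1505 and 0.14 for CRL1506. Its other probe gave 0.38 for CRL1505 and -0.55 for CRL1506. Both probes were higher with CRL1505 than with CRL1506, by 0.72 at the main one. *Atg7*, the activating enzyme of both systems, stood at 2.01, 1.71 and 2.24, so that it was lower with CRL1505 and higher with CRL1506, with ratios of -0.30 and 0.23 that were below 2-fold. Its other probe gave 0.07 and -0.02. *Atg3*, which transfers LC3 to lipid, had a ratio of 0.28 for CRL1505 and -0.22 for CRL1506. *Atg5* stood at 1.72, 1.69 and 1.68, and *Atg12* at 2.54, 2.57 and 2.66, which are differences smaller than those between probes of a gene.

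*Atg16l1*, which brings the conjugate to the membrane, stood at 2.77 with LPS, 2.77 with CRL1505 + LPS and 2.89 with CRL1506 + LPS at its main probe (chr1:89688896-89688955). The overlapping pair shown above behaved differently. A_55_P2728317 stood at 0.23 with LPS, 1.02 with CRL1505 + LPS and 2.20 with CRL1506 + LPS, and A_55_P2720600 at -1.67, -0.69 and 0.39. On both, LPS was the lowest array and CRL1506 + LPS the highest. These are ratios of 0.79 and 0.99 for CRL1505, below 2-fold, and of 1.97 and 2.07 for CRL1506, that is 3.91-fold and 4.19-fold higher. Between the strains they were 2.26-fold and 2.11-fold lower with CRL1505 than with CRL1506. The pair overlaps in sequence and counts as 1 observation. Both probes lie upstream of the main probe in the genome and are assigned by the array's design to a cDNA and to an Ensembl transcript, while the main probe is assigned to a RefSeq transcript. All 35 main probes carried a RefSeq accession, as did 55 of the 80 probes. Which transcript the pair measured was not tested. The remaining probe of the gene was dim on all arrays.

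**Figure D4:**
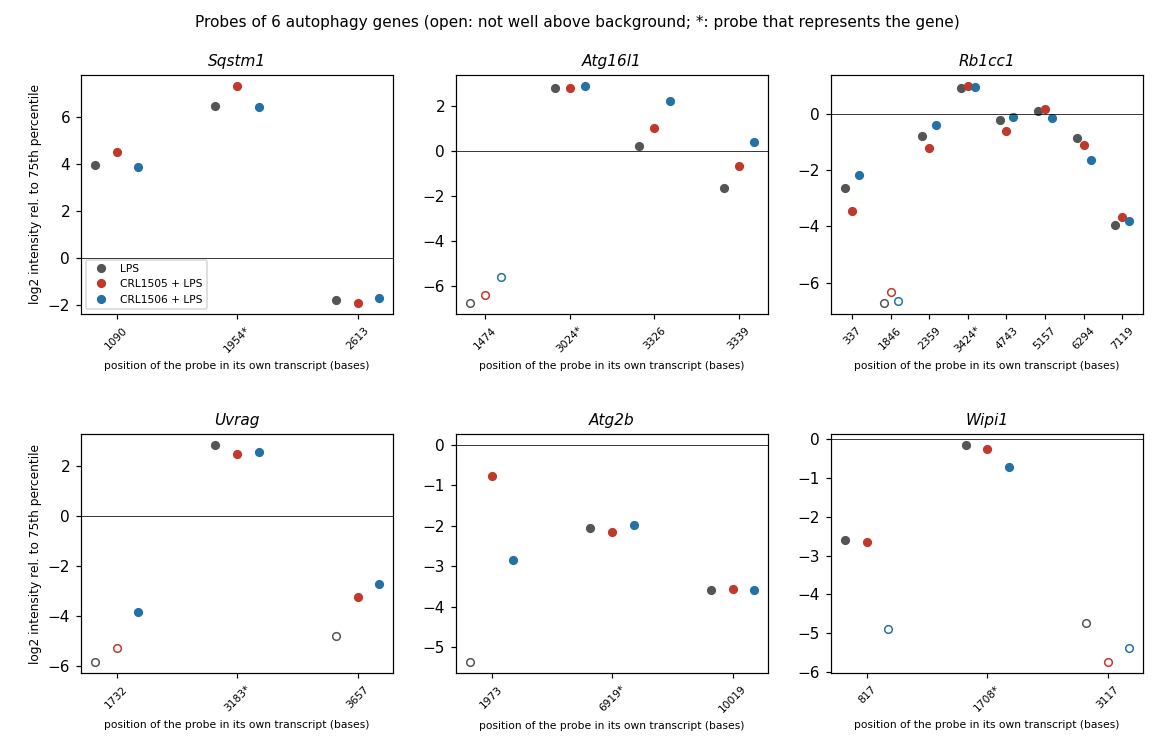
Level (y axis, log2 intensity relative to the 75th percentile of the array) of every probe of 6 autophagy genes on the 3 arrays, by the position of the probe in its own transcript (x axis, bases, not to scale); open points were not well above background, and stars mark the main probe. In *Atg16l1* the last pair is lowest with LPS and highest with CRL1506 + LPS while the main probe stays at 2.77 to 2.89, and in *Atg2b* only the first probe parts the arrays.

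Of the ATG4 proteases, which trim LC3 and GABARAP proteins before conjugation and release them from membranes, none passed 2-fold. *Atg4a* stood at -0.35 with LPS, -0.06 with CRL1505 + LPS and -0.78 with CRL1506 + LPS. Its ratio was 0.29 for CRL1505 and -0.43 for CRL1506, and it was 0.72 higher with CRL1505 than with CRL1506 on the log2 scale, with that sign kept under all 7 other normalizations. *Atg4b*, the protease with the broadest activity, had a ratio of -0.30 for CRL1505 at its main probe, but 0.20 and 0.61 at its other measured probes. *Atg4c* and *Atg4d* had ratios between -0.16 and 0.24 for either strain.

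Of the LC3 and GABARAP genes, whose products coat the autophagosome and bind receptors, *Map1lc3a* (LC3A) had the largest ratio. It stood at -1.51 with LPS, -0.54 with CRL1505 + LPS and -1.64 with CRL1506 + LPS. It was 1.96-fold higher with CRL1505 than with LPS (0.97), just under the threshold, at -0.13 for CRL1506, and 2.15-fold higher with CRL1505 than with CRL1506 (1.10). For CRL1505 the ratio ranged from 0.47 to 1.27 under the 7 other normalizations and was past 2-fold in 2. Between the strains it was past 2-fold in 4. As for *Atg9a*, the arrays of the shared slide were alike and the CRL1505 + LPS array stood apart, here on the high side, and the gene has 1 probe.

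*Map1lc3b* (LC3B), the usual marker of autophagosomes, stood at 4.78 with LPS, 4.48 with CRL1505 + LPS and 4.74 with CRL1506 + LPS. Its ratio for CRL1505 was -0.30 at the main probe and -0.37 at another. A further probe, A_55_P2715241, was at -4.09 with LPS, not well above background with CRL1505 + LPS and at -3.09 with CRL1506 + LPS, which just reached 2-fold higher for CRL1506, whereas the other 2 probes gave -0.04 and -0.11. *Gabarap* stood at 5.21, 5.55 and 5.18, a ratio of 0.34 for CRL1505, but -0.25 at its other measured probe. *Gabarapl1* stood at 5.10, 5.20 and 5.28, and its ratios of 0.11 and 0.19 were within the disagreement of probes over all genes. *Gabarapl2* stood at 3.68, 4.07 and 3.46, which is 0.40 for CRL1505 and -0.22 for CRL1506, and its second measured probe gave 0.31 and -0.07. Thus 4 of 5 genes of the group were above 0 for CRL1505 and 1 of 5 for CRL1506, with none past 2-fold. The count for CRL1505 depended on the scaling, since of these only *Map1lc3a* kept its sign under all 7 other normalizations.

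*Sqstm1* (p62), the receptor that binds ubiquitin on cargo and is itself degraded by autophagy, stood at 6.45 with LPS, 7.32 with CRL1505 + LPS and 6.42 with CRL1506 + LPS. It was 1.83-fold higher with CRL1505 than with LPS (0.87), at -0.03 for CRL1506, and 1.86-fold higher with CRL1505 than with CRL1506 (0.90). The second probe, whose sequence is shown above, stood at 3.95, 4.48 and 3.85, with a ratio of 0.53 for CRL1505, also on the high side. The last one, farthest toward the end of its transcript, stood at -1.83, -1.95 and -1.71, with a ratio of -0.12. Under the 7 other normalizations the ratio of the main probe for CRL1505 ranged from 0.37 to 1.17 and was past 2-fold in 1. With CRL1506 the 3 probes gave -0.10, -0.03 and 0.12.

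The other receptors went in various directions. *Optn* (optineurin), which binds ubiquitin and LC3, stood at -0.18 with LPS, 0.10 with CRL1505 + LPS and -0.38 with CRL1506 + LPS, with ratios of 0.28 and -0.20. *Nbr1*, a relative of p62 in function, stood at -1.66, -2.11 and -1.59, a ratio of -0.45 for CRL1505 and 0.07 for CRL1506. A further probe of *Nbr1*, A_55_P2627357, was dim on the other arrays and at least 2.28-fold higher with CRL1506 than with LPS alone. *Calcoco1*, a receptor for the endoplasmic reticulum and the Golgi apparatus, stood at -2.70, -2.82 and -3.48, a ratio of -0.12 for CRL1505 and -0.78 for CRL1506. Its other probe gave -0.84 for CRL1505 and 0.14 for CRL1506, so that the lowest array was CRL1506 + LPS at one probe and CRL1505 + LPS at the other.

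Compared with each other, the strains differed by at least 2-fold in 2 autophagy genes, with *Map1lc3a* higher and *Atg9a* lower for CRL1505. After the median shift, 7 were higher and 0 lower, and *Map1lc3a* (1.60) was the one call shared with the main scaling. The others were *Sqstm1* (1.39), *Atg4a*, *Atg10*, *Calcoco1*, *Ambra1* and *Gabarapl2*, while *Atg9a* was at -0.57. The median shift took the median over all genes to 0.58 and that of the autophagy genes to 0.47. Shares of all genes past 2-fold in this comparison are given under the main scaling only. They were 16.5% among genes well above background on at least 1 of both arrays and 12.9% among those on all 3. By direction, 7.11% of these were higher and 5.8% lower for CRL1505. At 1.5-fold, 8 autophagy genes passed (22.9%, against 32.2% of all genes on all 3 arrays), with 7 higher, against 17.9%, and 1 lower, against 14.2%. The log2 ratio had a median of -0.02, beside 0.09 over all genes. Over all genes the median ran from -0.31 with spike-in scaling to 0.58 after the median shift. The share of all genes that kept their sign is not given here. The sign was kept under all 7 other normalizations for 13 autophagy genes. Of these, *Ambra1*, *Wipi1*, *Atg10*, *Atg3*, *Atg4a*, *Map1lc3a*, *Gabarapl2*, *Sqstm1*, *Optn* and *Calcoco1* were higher for CRL1505 at their main probes, and *Atg9a*, *Atg7* and *Nbr1* were lower. Other measured probes went the other way for *Calcoco1* (-0.98), *Atg7* (0.09) and the last probe of *Sqstm1* (-0.24). They went the same way for *Atg10* (0.93), *Gabarapl2* (0.38), *Optn* (0.23) and the second probe of *Sqstm1* (0.63). The strains also differed in slide, which cannot be told apart from the strain.

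Genes that control or complete autophagy were taken as 6 lists of 84 genes, of which 81 were on the array under the listed symbols and 78 could be compared. With CRL1505, 2 of them were at least 2-fold higher and 4 lower, and with CRL1506 2 were higher and 2 lower. These are 7.69% and 5.13% of the 78, beside 18.3% and 9.19% of all genes that could be compared. Among all genes well above background on all 3 arrays, as the 78 were but for *Foxo4*, the shares were 14.2% and 5.78%. For CRL1506 the listed genes thus lay near the share of all genes. By direction, 7.67% of these were higher and 6.56% lower for CRL1505, and 4.01% and 1.77% for CRL1506. Counts are at the main probe of each gene and under the main scaling only. With the median shift, the median over all genes for CRL1506 was -0.27 instead of -0.07. This would take both higher genes, *Rragb* and *Wdfy3*, under 2-fold. Spike-in scaling, with medians of -0.45 for CRL1505 and -0.18 for CRL1506, would do so for both higher genes of either strain. Such shifts could also add lower genes. In 2 further genes for CRL1505 and 7 for CRL1506 another measured probe was past 2-fold. Among regulators of mTORC1, the kinase that holds autophagy back, *Sesn1*, a stress-induced inhibitor of mTORC1, stood at 0.09 with LPS, -2.24 with CRL1505 + LPS and -1.17 with CRL1506 + LPS. At the main probes it was the listed gene with the largest ratio for both strains, -2.33 for CRL1505 and -1.26 for CRL1506. *Deptor*, a further inhibitor of mTOR, had a ratio of -1.59 for CRL1505 at its main probe, but its probes ranged from -2.46 to 0.08. *Rragb*, a GTPase that recruits mTORC1 to lysosomes, was at 0.96 for CRL1505 and 1.06 for CRL1506. The other mTORC1 genes, 22 of 24 for either strain, were under 2-fold at their main probes. For CRL1506, however, another probe of *Rptor* was at 2.42, against -0.11 at its main one, and another of *Sesn3* at -1.02.

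Of the transcription factors that drive autophagy and lysosome genes, *Tfeb* stood at -1.06 with LPS, 0.14 with CRL1505 + LPS and -1.50 with CRL1506 + LPS, a ratio of 1.20 for CRL1505 and -0.43 for CRL1506. Its 2 probes measured for CRL1505 went in opposite directions, with -1.14 at the other, so the higher level with CRL1505 holds for 1 probe only. For CRL1506 its 4 measured probes all lay below 0, from -1.49 to -0.43. Of the remaining factors, *Foxo1*, *Foxo3*, *Tfe3* and *Mitf* were under 2-fold for both strains at their main probes. *Foxo4* was dim with CRL1505 + LPS and at least 1.37-fold lower there than with LPS. Its ratio for CRL1505 is thus at most -0.45 and has no lower limit. The AMPK subunit *Prkag2* was at -1.50 for CRL1505 and -0.41 for CRL1506, with 4 other subunits under 2-fold. Of the other early factors, *Sh3glb1*, which curves membranes and binds UVRAG, was at 1.07 for CRL1505 with all 3 probes between 0.80 and 1.07. *Atg9b*, the relative of *Atg9a*, was at -1.40 for CRL1505 and -0.24 for CRL1506. Under the main scaling, both *Atg9* genes thus had a ratio past 2-fold for CRL1505 and under 2-fold for CRL1506. Each rests on 1 measured probe, and *Atg9a* was past 2-fold for CRL1505 in 3 of the 7 other normalizations. The CRL1505 + LPS array was on a slide of its own. *Zfyve1* (DFCP1) was at -1.06 for CRL1506, where its probes ranged from -1.06 to 0.10. None of the 13 genes of fusion with lysosomes passed 2-fold for either strain at its main probe, though other probes of *Vps11* reached -1.63 for CRL1505 and 1.36 for CRL1506. Of 17 further receptor and mitophagy genes 1 did, *Wdfy3*, at 1.03 for CRL1506, and another probe of *Bcl2l13* was at 1.71 there. The shares of all genes are those given above for the lists as a whole.

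**Figure D5:**
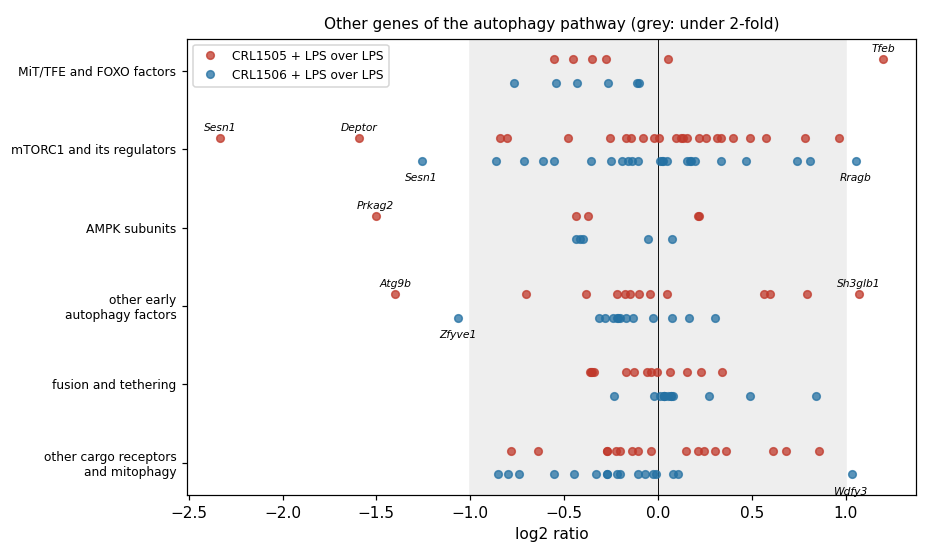
log2 ratio (x axis) of other genes of the autophagy pathway by list, with 1 point per gene for CRL1505 (red) and CRL1506 (blue) over LPS alone. The grey band is under 2-fold and genes past it are named. *Sesn1* lies farthest out for both strains (-2.33 and -1.26), and no gene of fusion and tethering leaves the band.

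Promoters of 29 of the 35 genes, from 250 bases before to 50 after the start, were found among RefSeq sequences of GRCm38.p6. CACGTG, the core of the element that TFEB and related factors bind, which reads the same on both strands, was in 4 of 29 (13.8%), namely those of *Atg14*, *Atg3*, *Atg5* and *Atg7*. It was in 8.09% of the promoters of all genes and in 11.5% of those of genes well above background on all arrays. TGACNNNGC, the core of the element that NRF2 binds, searched on both strands, was in 3 of 29 (10.3%), against 14.0% and 16.6%. TCACGTGA, a longer form of CACGTG, was in 1 of the 29 (3.45%, against 1.12% and 2.18%). TGACGTCA, the element that CREB and ATF factors bind, was in 2 (6.90%, against 2.03% and 3.70%). Both read the same on both strands. *Atg9a* and *Sqstm1* were not among the promoters with CACGTG or TGACNNNGC, and *Map1lc3a* had no promoter in the table.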

How the data were processed

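For each array the authors deposited the output of Agilent Feature Extraction (12.0.3.1 in the file header), in which the processed signal is an intensity with local background and spatial trend removed, not normalized between arrays. A second deposited file holds log2 values that the authors normalized between arrays (median 6.77 on each), whose setting is not given in the sources used here; the submitters' notes name limma. Probe positions are on mm9.

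From these files, the log2 processed signal was set relative to the 75th percentile of each array over its 59305 gene spots (743.1, 517.0 and 697.9 for LPS, CRL1505 + LPS and CRL1506 + LPS). Outlier spots were left out and repeated spots of a probe averaged. A probe with an outlier spot represented a gene only where no other probe did. Probes dim (not well above background) on both sides of a comparison gave no ratio. With 1 dim side, that side took the higher of its own signal and the lowest one called well above background there, and the ratio is a bound ("at least"). The 2-fold threshold is that of the methods, whose t-test was left out for want of replicates. The number of arrays limits the precision. Over probes spotted repeatedly, the log2 ratio had a median SD of 0.048 with CRL1505 and 0.043 with CRL1506, which covers 1 hybridisation only.

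All 35 genes are accounted for. Full values are given for those past 2-fold, the 5 largest ratios of each comparison, genes whose probes disagree by over 1 (log2) or in their side of 2-fold, and the LC3, GABARAP and receptor groups. Of the pathway lists, genes past 2-fold are named, with others as examples. The genes and lists were chosen with earlier results of these data known. *Map1lc3b2* and *Fam134b* were not found under these symbols, though *Retreg1*, another name of the latter, was.

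Alternative scalings were a median shift, the 75th percentile over detected probes only, 10 spike-in probes, quantile normalization, cyclic loess, normexp (offset 50) and the deposited log2 values. Further alternatives dropped the filter for dim probes, kept detected probes only, averaged the probes of a gene, kept outlier spots, removed uneven spots, or used 1.5-fold. R 4.3.3 with limma 3.58.1 and Python 3.11.15 (pandas 2.3.3, NumPy 2.4.6) were used, and the procedure was tested on simulated data.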

Additional observations from a re-analysis of the deposited data

How the results depend on the processing

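The scaling of the arrays moved the medians of the autophagy genes most. For CRL1505 over LPS the median of -0.03 became 0.27 after the median shift and -0.53 after spike-in scaling, and for CRL1505 over CRL1506 -0.02 became 0.47 and -0.41. The 2 genes past 2-fold for CRL1505 became 1 with normexp, 1 with the deposited log2 values and 5 at 1.5-fold. After the median shift they became 3, all higher, and 0 of the 2 lower genes were among them. The 0 genes for CRL1506 became 1 after the median shift, 1 after spike-in scaling, 1 after quantile normalization, 2 when probes of a gene were averaged and 2 at 1.5-fold. The 2 genes between the strains became 7 after the median shift (7 higher and 0 lower), 1 with the 75th percentile over detected probes, 1 after spike-in scaling, 1 after quantile normalization, 0 with normexp, 1 with the deposited log2 values and 8 at 1.5-fold; these alternatives for that count were chosen after seeing the data. The cause of these moves was not tested, other than that a shift adds the same amount to every gene of an array and a lower threshold admits more genes. Of the medians and counts of these genes, 56 other values moved by less than the spread between probes, or for counts by no more than 1.5 times, which does not say that the same genes were counted. Of the ratios of single genes under 12 alternatives, 1081 moved by less than that spread and 179 by more, and none of the genes past 2-fold changed sign. No paired analysis was possible because each group has 1 array. Signal over background limits the 11 probes that were dim on some arrays and the 10 that were dim on all.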
